A study of Mus musculus with 12 samples.

Results

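Messenger RNA of 9 genes was followed across 12 mouse lung cancer libraries. Of these, 4 encode splicing regulators (Esrp1, Esrp2, Rbfox2 and Ptbp1) and were measured by their gene totals. The other 5 (Cd44, Fgfr2, Ctnnd1, Enah and Pkm) are known targets of such regulators and were also measured by the share of each transcript in its gene. The 9 genes were taken by name from 19212 genes in the deposited table, and all were found there. They hold 111 of its 70659 transcripts, 54 of them in the targets.

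The libraries form 4 groups of 3. In the OTUB1_KD group, Lewis lung carcinoma cells (LLC, a transplantable mouse lung tumour line) had received a knockdown lentivirus against OTUB1, a deubiquitinase, before mouse models were made. The NC group carried a negative control lentivirus and is labelled WT. In the other experiment, animals with WT labels were given SFD@M, an agent the labels do not describe, or physiological saline (the Blank group). The labels give lung cancer as the tissue of every library. They do not give the age, sex and strain of the animals, whether the knockdown was 1 clone, and whether each library is an animal of its own. The spread behind every p-value may therefore be technical. Sample titles of the Blank group carry codes beginning with KD; the group follows the word Blank and the saline treatment.

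ESRP1 and ESRP2 are RNA-binding proteins of epithelial cells. They favour the epithelial isoforms of FGFR2, CD44, CTNND1 and ENAH, and their loss accompanies the epithelial-mesenchymal transition, in which cells give up epithelial junctions. RBFOX2 binds near many of the same exons and is commonly associated with the mesenchymal pattern, and PTBP1 is a repressor of exons that, among other targets, keeps the M1-type exon of Pkm out of the message of dividing cells.

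The exons that set these isoforms apart are shown because the shares given below turn on them. They were read from GENCODE M21 (build GRCm38) through its list of RefSeq transcripts. The deposited values rest on GRCm39, per the submitters' processing notes, so the coordinates are those of the annotation and not of the files. The pair of Pkm exons lies on chromosome 9, plus strand, at chr9:59675568-59675734 for the M2 type and chr9:59675029-59675195 for the M1 type, with 372 bases between them. Each has 167 bases and 1 of the 2 is used in a message. Capitals mark the 64 positions at which the exons differ, and the 103 others are identical.
Pkm exon of NM_011099, M2 type: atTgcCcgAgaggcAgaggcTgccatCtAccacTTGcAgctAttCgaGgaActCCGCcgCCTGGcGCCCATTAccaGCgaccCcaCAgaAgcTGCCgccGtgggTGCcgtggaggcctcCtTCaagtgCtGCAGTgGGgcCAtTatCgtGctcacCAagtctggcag
Pkm exon of NM_001253883, M1 type: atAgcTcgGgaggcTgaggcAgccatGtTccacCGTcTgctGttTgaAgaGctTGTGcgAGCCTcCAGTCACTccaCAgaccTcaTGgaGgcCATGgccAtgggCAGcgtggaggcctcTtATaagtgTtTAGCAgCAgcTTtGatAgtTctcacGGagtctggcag

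Fgfr2, a receptor for fibroblast growth factors, uses either its IIIb exon, which gives the epithelial form, or its IIIc exon, which gives the mesenchymal form. Both encode part of the ligand-binding region. The IIIb exon, carried by most Fgfr2 message in OTUB1_KD and SFD@M, lies on the minus strand at chr7:130199758-130199905 (148 bases).
Fgfr2 exon of NM_201601, IIIb: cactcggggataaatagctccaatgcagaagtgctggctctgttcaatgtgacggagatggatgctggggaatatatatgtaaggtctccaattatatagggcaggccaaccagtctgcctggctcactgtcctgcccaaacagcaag

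Cd44, a receptor for hyaluronan, has 10 variable coding exons in its matched transcripts. NM_001039151, the standard form, holds 0 of them, and the other 5 matched transcripts hold 2 to 10. The last variable exon is 1 of the 2 that all 5 hold, and lies on the minus strand at chr2:102831330-102831536 (207 bases). Ptbp1 itself has an optional exon of 78 bases at chr10:79860117-79860194, plus strand, in the linker between RNA-binding motifs. It is present in NM_001077363 and absent from NM_008956.
Cd44 last variable exon: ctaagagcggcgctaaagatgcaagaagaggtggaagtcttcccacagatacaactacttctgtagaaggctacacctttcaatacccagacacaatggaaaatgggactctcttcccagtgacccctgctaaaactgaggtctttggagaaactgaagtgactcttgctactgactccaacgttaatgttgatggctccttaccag
Ptbp1 exon of NM_001077363: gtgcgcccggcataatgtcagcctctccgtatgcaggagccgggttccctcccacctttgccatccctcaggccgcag

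Library totals ranged from 16062806 to 18028828 counts. Libraries of a group differed by very unequal amounts: the chi-square per degree of freedom between pairs, which is near 1 for counting noise alone, was 96.9 to 160.2 in OTUB1_KD, against 1.38 to 2.00 in NC, and 16.8 to 31.7 in SFD@M, against 1.32 to 1.56 in Blank. The control libraries thus varied little beyond counting noise, and each was kept as a sample of its own. Otub1, the gene named by the knockdown, stood at 58.6, 49.3 and 71.2 CPM (counts scaled to a common library total) in OTUB1_KD, against 76.2, 73.9 and 69.8 CPM in NC. These ranges overlapped, and the difference did not pass the test (log2 fold change −0.36 ± 0.18 SE, adjusted p = 0.112). In the experiment without a knockdown, Otub1 had 47.3, 45.5 and 48.1 CPM in SFD@M, against 78.04, 73.3 and 73.5 CPM in Blank, and fell by 0.71 ± 0.05 (adjusted p = 5.8e-06). The labelled tissue was checked against marker lists, shown in the plot of marker sums. The defining markers of blood and vessel cells were at or near 0 in the control groups: 14 leukocyte genes summed to 3938 to 9052 CPM in OTUB1_KD, against 7.97 to 9.15 CPM in NC, and to 5804 to 6806 CPM in SFD@M, against 3.85 to 4.93 CPM in Blank. Cd3e and S100a9 had 0 counts in NC, and Cd3e, Ms4a1 and S100a9 were among those at 0 in Blank. The 10 endothelial genes summed to 1259 to 3116 CPM in OTUB1_KD, against 5.23 to 5.67 CPM in NC, and to 3139 to 4322 CPM in SFD@M, against 2.04 to 2.73 CPM in Blank, with Cldn5 and Erg at 0 counts in both control groups. Alveolar and airway genes showed the same order. The 12 fibroblast and muscle genes, of which 9 reached 1 CPM in NC and in Blank, summed to 3900 to 5485 CPM in OTUB1_KD, against 2294 to 2402 CPM in NC, and to 2125 to 2973 CPM in SFD@M, which spanned 2760 to 2842 CPM in Blank. Of these 10 rose and 1 fell in OTUB1_KD, beside 39.9% and 25.8% of all genes, and 10 rose and 2 fell in SFD@M, beside 49.5% and 38.7%; the genes under 1 CPM in the controls could only be called higher. The 8 dividing-cell genes were in the reverse order, at 211 to 922 CPM in OTUB1_KD, against 2773 to 2853 CPM in NC, and 28.3 to 100.2 CPM in SFD@M, against 2949 to 3005 CPM in Blank. The labels give 1 tissue for all libraries, yet NC and Blank show almost no RNA of blood or vessel cells. Whether they were made from tumours or from cultured cells is not given, and a difference in starting material cannot be told apart from the knockdown or the treatment in any comparison of OTUB1_KD with NC or SFD@M with Blank below. The part of this difference in cell markers in the results was not tested. In bulk libraries, fewer cells of a type and less RNA per cell cannot be told apart.

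**Figure D1:**
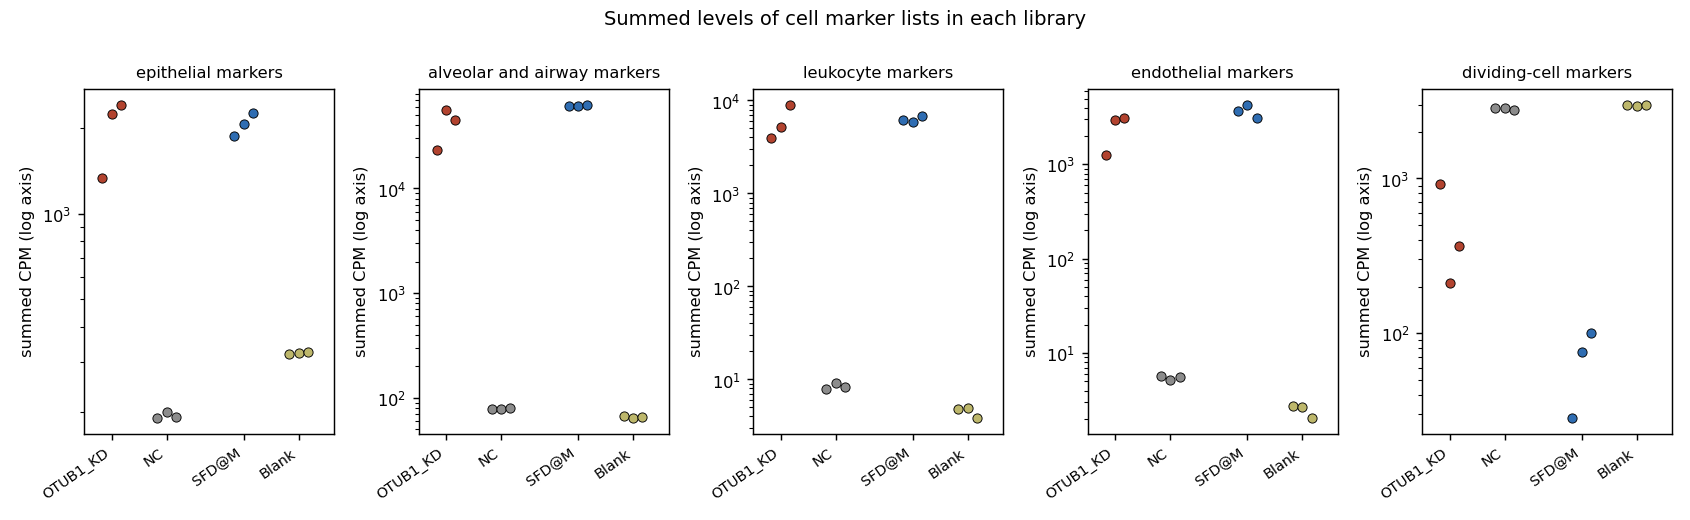
Summed CPM of 5 marker lists (log axis) in each of the 12 libraries, 1 point per library. Epithelial, alveolar and airway, leukocyte and endothelial sums were higher in OTUB1_KD than in NC and in SFD@M than in Blank, and dividing-cell sums were lower.

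Both epithelial regulators rose in OTUB1_KD and in SFD@M from a level near 0 in the control groups. Esrp1 had 19.8, 37.9 and 22.4 CPM in OTUB1_KD, against 1 count in each NC library, and 37.8, 35.8 and 41.5 CPM in SFD@M, against 2 counts in each Blank library. Esrp2 had 19.7, 37.5 and 37.0 CPM in OTUB1_KD, against 3, 7 and 1 counts in NC, and 48.7, 49.5 and 47.9 CPM in SFD@M, against 2, 4 and 2 counts in Blank. No library of OTUB1_KD or SFD@M came near its control group for either gene. Since NC held only 3 Esrp1 counts in all, the change is given as a ratio of CPM, 442 with a 95% counting interval of 151 to 2144, and edgeR's test of the totals called it (adjusted p = 2.3e-05). Esrp2 rose by 7.04 ± 0.55 on the log2 scale in OTUB1_KD against NC (adjusted p = 8.0e-05). In SFD@M against Blank, Esrp1 rose by 8.24 ± 0.16 and Esrp2 by 8.19 ± 0.15 (log2 ± approximate SE, adjusted p = 1.1e-08 and 9.5e-09). From 6 and 8 Blank counts, the ratios of CPM were 330 (95% counting interval 151 to 901) and 314 (159 to 728). These intervals are wider than the SE implies. Intervals cover counting error only. Both genes passed the filter on low counts only through OTUB1_KD or SFD@M, so a call could only be upward and the p-values add no support.

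The order of the group means was the same for both genes: SFD@M first, then OTUB1_KD, then the control groups. For Esrp1 the means were 38.4 ± 2.88 CPM in SFD@M and 26.7 ± 9.75 CPM in OTUB1_KD (SD, n = 3), and the highest OTUB1_KD library lay inside the SFD@M range. For Esrp2 they were 48.7 ± 0.80 CPM in SFD@M and 31.4 ± 10.1 CPM in OTUB1_KD, with no overlap. In TPM, which corrects for transcript length and allows genes to be compared, the mean level of Esrp2 was 14.3 ± 4.76 in OTUB1_KD, against 0.133 ± 0.101 in NC, and that of Esrp1 was 9.87 ± 3.07 in OTUB1_KD, against 0.03 in each NC library. OTUB1_KD replicate 1 held the lowest level of both genes in its group, and also the lowest epithelial marker sum, at 1334 CPM, against 2240 and 2423 CPM in the other OTUB1_KD libraries.

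Epithelial markers moved with the 2 regulators. Only 4 of the 18 epithelial genes reached 1 CPM in NC and 3 in Blank, so most passed the filter on low counts only through OTUB1_KD or SFD@M, where a call could only be upward. With that limit, 18 were called higher in OTUB1_KD, beside 39.9% of all genes, and 17 higher and 1 lower in SFD@M, beside 49.5% and 38.7%; nothing is read from these counts. Their sums were 1334 to 2423 CPM in OTUB1_KD, against 191 to 201 CPM in NC, and 1875 to 2255 CPM in SFD@M, against 322 to 325 CPM in Blank. Cdh1, the junction protein E-cadherin, averaged 229 ± 87.6 CPM in OTUB1_KD, against 0.204 ± 0.159 CPM in NC, and 327 ± 30.9 CPM in SFD@M, against 0.0969 ± 0.0337 CPM in Blank. Krt8, a keratin of simple epithelia and the gene that fell in SFD@M, was present in all groups, at 336 ± 118 CPM in OTUB1_KD, against 174 ± 5.05 CPM in NC, and 184 ± 32.8 CPM in SFD@M, against 313 ± 2.73 CPM in Blank (all SD, n = 3). Of the 12 alveolar and airway genes 2 reached 1 CPM in NC and 3 in Blank, so the same limit holds and no count is given. Their sums were 23094 to 55874 CPM in OTUB1_KD, against 78.3 to 80.8 CPM in NC, and 60839 to 63304 CPM in SFD@M, against 64.2 to 67.3 CPM in Blank. The lists were chosen with these libraries' earlier results known, and the part of the cell makeup in the Esrp1 and Esrp2 values was not tested.

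Genes whose profile over the 12 libraries was nearest to those of the regulators were found among 14201 genes by the root mean square difference of centred log2(CPM + 1) values. Nearest to Esrp1 were Spata6 (0.0796), 2610028H24Rik (0.0999), Mal (0.109), Mob3b (0.112) and Irx3 (0.114). Nearest to Esrp2 were Slc37a1 (0.107), Tppp (0.151), Cadps2 (0.159), Tbc1d30 (0.159) and Bend7 (0.164). Esrp1 and Esrp2 lay 0.223 from each other, which placed Esrp2 at rank 58 from Esrp1 and Esrp1 at rank 29 from Esrp2. These distances describe likeness of level across 4 groups and carry no test.

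Rbfox2 took the opposite direction. It had 140, 99.7 and 100.3 CPM in OTUB1_KD, against 274, 279 and 262 CPM in NC, and 96.2, 96.3 and 76.3 CPM in SFD@M, against 253, 241 and 248 CPM in Blank. The groups did not overlap in either comparison. The gene total fell by 1.33 ± 0.19 on the log2 scale in OTUB1_KD (adjusted p = 0.00091) and by 1.50 ± 0.09 in SFD@M (adjusted p = 2.0e-06). The difference between these changes was 0.14 ± 0.21 and did not pass (adjusted p = 0.667). In TPM, Rbfox2 averaged 24.3 ± 5.24 in OTUB1_KD, against 66.8 ± 2.04 in NC, and 18.6 ± 2.39 in SFD@M, against 62.5 ± 1.94 in Blank. It remained above Esrp1 and Esrp2 in OTUB1_KD on this scale, and below Esrp2 in SFD@M, where Esrp2 averaged 21.9 ± 1.11 TPM. Of its 43 transcripts 11 reached a mean share of 5% in some group, and 0 of them changed in usage.

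Ptbp1 fell in SFD@M. It had 209, 218 and 216 CPM in SFD@M, against 525, 514 and 520 CPM in Blank, a log2 fold change of −1.31 ± 0.05 (adjusted p = 1.8e-07). In OTUB1_KD it had 335, 231 and 240 CPM, against 339, 350 and 351 CPM in NC. The OTUB1_KD libraries all lay below NC, replicate 1 by a narrow margin, and the change of −0.43 ± 0.20 did not pass (adjusted p = 0.0871). Without OTUB1_KD replicate 1 it was −0.63 and passed (adjusted p = 0.0025). The changes in the 2 experiments differed by 0.85 ± 0.20 (adjusted p = 0.0145), with the larger fall in SFD@M. Ptbp1 was the most abundant of the 4 regulators in each group, at 127 ± 31.0 TPM in OTUB1_KD, against 190 ± 3.63 TPM in NC, and 98.5 ± 4.57 TPM in SFD@M, against 294 ± 3.08 TPM in Blank.

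The transcript of Ptbp1 with the 78-base exon made up 48.1%, 46.2% and 43.9% of its counts in OTUB1_KD, against 58.0%, 56.7% and 56.3% in NC. These ranges did not overlap, yet the usage test, which compares each transcript's change with that of its gene, did not call it (log2 change relative to the gene −0.30 ± 0.36, adjusted p = 1.0). In SFD@M the shares were 34.6%, 52.6% and 50.8%, on both sides of 48.0%, 46.0% and 48.1% in Blank (−0.04 ± 0.14, adjusted p = 1.0). Over all transcripts tested 2.96% were called in OTUB1_KD against NC and 6.92% in SFD@M against Blank, and 0 of 41 and 0 of 40 tested transcripts of the 4 regulators were among them. The threshold for a call here and throughout was an adjusted p below 0.05. Ranges of 3 and 3 libraries that do not overlap, here and below, are a description and carry no test. How many of all transcripts had such ranges was not counted.

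**Figure D2:**
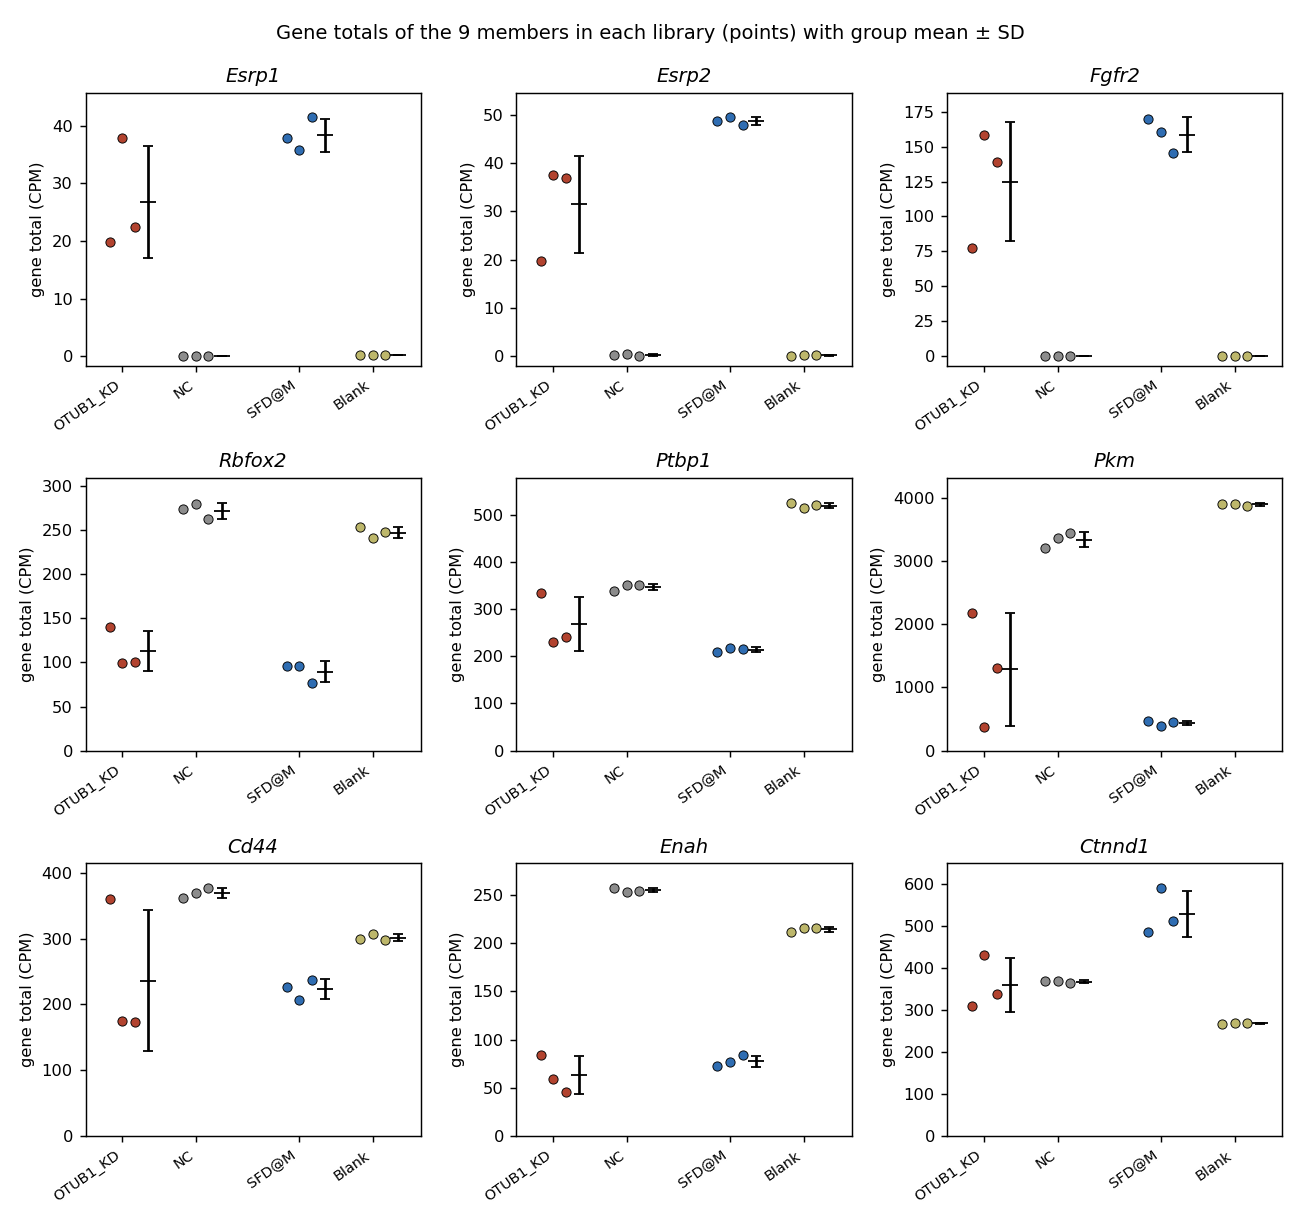
Gene totals of the 9 genes in CPM, 1 point per library, with the mean and SD of each group beside them. Esrp1, Esrp2 and Fgfr2 sit at or near 0 in NC and Blank, while Rbfox2, Enah and Pkm are lower in OTUB1_KD than in NC and in SFD@M than in Blank.

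Among the targets, the gene totals moved apart, and the change of Fgfr2 was the largest. Fgfr2 had 77.4, 159 and 139 CPM in OTUB1_KD, against 5, 3 and 1 counts in NC, and 170, 161 and 145 CPM in SFD@M, against 1, 1 and 0 counts in Blank. It rose by 9.31 ± 0.52 on the log2 scale in OTUB1_KD (adjusted p = 2.5e-05). For SFD@M the 2 counts in Blank allow only a ratio, 4096 with a 95% counting interval of 1133 to 33824, which edgeR called (adjusted p = 6.3e-09). Fgfr2 too passed the filter on low counts only through OTUB1_KD or SFD@M, so a call could only be upward. The lowest OTUB1_KD level was again in replicate 1. In TPM, Fgfr2 averaged 35.2 ± 11.2 in OTUB1_KD and 43.5 ± 3.58 in SFD@M, against 0.06 ± 0.04 in NC and 0.0133 ± 0.0115 in Blank.

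Most Fgfr2 message in OTUB1_KD and SFD@M was of the IIIb form, whose exon is printed above. NM_201601 (IIIb) held 64.0%, 73.7% and 68.4% of Fgfr2 counts in OTUB1_KD and 73.6%, 69.9% and 69.2% in SFD@M. NM_010207 (IIIc) held 31.3%, 19.1% and 22.9% in OTUB1_KD and 19.9%, 24.5% and 26.5% in SFD@M. Counted against IIIb and IIIc alone, IIIc made up 32.9%, 20.6% and 25.1% in OTUB1_KD, and the highest value was that of replicate 1. NM_201601 had 0 counts in every NC and Blank library, and NM_010207 had 8 counts in NC and 1 in Blank, so no share can be given there. With 9 and 2 counts in the control groups, the usage test called neither form (IIIb, adjusted p = 0.146 in OTUB1_KD against NC and 0.428 in SFD@M against Blank). Some alternative fits did call IIIb, but with no share in the controls no usage change is read from any of them.

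Pkm encodes the muscle-type pyruvate kinase of glycolysis. It had 2175, 381 and 1300 CPM in OTUB1_KD, against 3203, 3371 and 3439 CPM in NC, and 469, 398 and 447 CPM in SFD@M, against 3906, 3909 and 3872 CPM in Blank. OTUB1_KD replicate 2 stood just under the SFD@M range. The total fell by 3.19 ± 0.08 on the log2 scale in SFD@M (adjusted p = 3.1e-08). The OTUB1_KD libraries also lay below NC, but they were spread over a wide range and the change of −1.44 ± 0.57 did not pass (adjusted p = 0.0579). Without replicate 1 it was −2.05 (adjusted p = 0.0186), and without replicate 2 it was −1.01 (adjusted p = 0.0178). The lower totals of Ptbp1, Cd44 and Pkm in OTUB1_KD also passed with DESeq2 (adjusted p 0.00917 to 0.0471), with limma on log2(TPM + 1) (0.0282 to 0.0288) and in a fit of all 12 libraries (0.0114 to 0.0161). The changes of Pkm in the 2 experiments differed by 1.73 ± 0.62 (adjusted p = 0.0662), and by 2.18 without OTUB1_KD replicate 2 (adjusted p = 0.00010).

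The M1-type exon made up a smaller part of Pkm message in OTUB1_KD and SFD@M than in their controls, a difference that the usage test did not call. NM_001253883 (M1) held 10.8%, 17.7% and 14.1% of Pkm counts in OTUB1_KD, against 27.3%, 27.2% and 27.0% in NC, and 9.90%, 12.7% and 14.3% in SFD@M, against 16.7%, 16.4% and 17.2% in Blank. NM_011099 (M2) held 89.0%, 75.7% and 85.3% in OTUB1_KD, against 72.3%, 72.4% and 72.6% in NC, and 90.1%, 87.2% and 85.2% in SFD@M, against 83.1%, 83.3% and 82.5% in Blank. Neither comparison had overlapping ranges. For the M1 transcript the test gave no call in OTUB1_KD (−1.11 ± 0.60, adjusted p = 0.693) or in SFD@M (−0.45 ± 0.18, adjusted p = 0.212). In SFD@M limma called both Pkm transcripts (adjusted p = 0.0378 for M1 and 0.0038 for M2), where it called 8254 of 31045 transcripts. The M1 and M2 transcripts also differ in length outside the exon pair, and counts from there enter these shares.

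Cd44 fell in SFD@M, with 226, 206 and 237 CPM, against 300, 308 and 298 CPM in Blank (log2 fold change −0.47 ± 0.06, adjusted p = 0.00016, and 0.0923 in the fit of all 12 libraries). In OTUB1_KD it had 360, 174 and 173 CPM, against 363, 369 and 377 CPM in NC. Replicate 1 was at the edge of the NC range and the others at less than the lowest SFD@M library, and the change of −0.72 ± 0.31 did not pass (adjusted p = 0.0779). Without replicate 1 it was −1.17 (adjusted p = 0.00025). The changes in the 2 experiments differed by −0.27 ± 0.34 (adjusted p = 0.609), and by −0.72 without that library (adjusted p = 0.0017).

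Most Cd44 message was of the standard form. NM_001039151 held 93.9%, 88.2% and 85.7% of Cd44 counts in OTUB1_KD, against 97.0%, 96.8% and 96.4% in NC, and 83.3%, 83.0% and 85.5% in SFD@M, against 95.8%, 96.9% and 97.4% in Blank. The 5 matched transcripts with variable exons together held 4.59%, 4.56% and 5.76% in OTUB1_KD, against 1.54%, 2.45% and 2.98% in NC. They held 11.3%, 9.99% and 12.2% in SFD@M, against 3.18%, 1.87% and 2.29% in Blank, and the ranges did not overlap in either comparison. The usage test did not call the standard form (adjusted p = 1.0 in OTUB1_KD and 0.960 in SFD@M). In SFD@M limma called it (adjusted p = 0.00025), where limma called 8254 of 31045 transcripts. In SFD@M against Blank edgeR's usage test called 1 of the Cd44 transcripts, NM_001039150, which holds 5 variable exons and lies under the 5% share (log2 change relative to the gene 4.95 ± 1.08, adjusted p = 0.0034). It is given here because it carries the exon printed above, and was singled out after its values were seen. In Blank it averaged 0.160% of Cd44 counts, against 4.96% in SFD@M. It passed the filter on low counts only through SFD@M, so a call could only be upward. Another 5 Cd44 transcripts had no matched structure and held 1.49% to 8.59% in OTUB1_KD, against 0.588% to 1.48% in NC.

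Ctnnd1 encodes p120-catenin, which holds cadherins at the cell surface. Its total rose in SFD@M, with 485, 589 and 510 CPM, against 267 to 268 CPM in the Blank libraries (log2 fold change 0.95 ± 0.08, adjusted p = 1.5e-05). In OTUB1_KD it had 309, 430 and 337 CPM, on both sides of 369, 367 and 363 CPM in NC (−0.10 ± 0.18, adjusted p = 0.645). The 2 changes differed by −1.08 ± 0.18 (adjusted p = 0.0037).

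Of 22 Ctnnd1 transcripts 6 could be matched to exon structures. In 5 of these translation begins at an upstream start (2751 coding bases in NM_001085448), while NM_001085449 begins downstream and has 2490. The form with the downstream start, known from epithelial cells, held 5.56%, 10.3% and 12.4% of Ctnnd1 counts in OTUB1_KD, against 0.682%, 1.44% and 0.428% in NC. It held 10.1%, 9.36% and 11.5% in SFD@M, against 4.71%, 4.89% and 4.87% in Blank. The groups did not overlap in either comparison, and the usage test did not call it (3.53 ± 1.33, adjusted p = 0.194, in OTUB1_KD and 1.11 ± 0.59, adjusted p = 0.406, in SFD@M). The matched forms with the upstream start averaged 24.88% in OTUB1_KD, against 24.85% in NC, and 22.2% in SFD@M, against 30.1% in Blank. Transcripts without a match averaged 65.7% in OTUB1_KD, 74.3% in NC, 67.5% in SFD@M and 65.1% in Blank. The start of most Ctnnd1 message is therefore not given. NM_001085448 changed in SFD@M, with shares of 0%, 0% and 0.861%, against 4.77%, 6.61% and 7.23% in Blank (−4.44 ± 1.42, adjusted p = 0.0423), a call that was lost without each of SFD@M replicates 1 and 2 and each Blank library (adjusted p 0.0695 to 0.203). This transcript passed the filter on low counts only through Blank, so a call could only be downward.

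In SFD@M against Blank 4 Ctnnd1 transcripts were called, 2 higher and 2 lower, and the 2 higher ones lay under the 5% share. The other calls on named Ctnnd1 transcripts fell on ones without a matched structure, so no isoform role is given to them. XM_030247019 held 0.0951%, 0% and 1.74% in SFD@M, against 18.7%, 13.2% and 17.2% in Blank (−4.76 ± 0.84, adjusted p = 5.1e-05), and 0.101%, 0% and 5.92% in OTUB1_KD, against 17.9%, 13.6% and 24.6% in NC (adjusted p = 0.087). XM_006498636 had 0 counts in all OTUB1_KD libraries, against 6.53%, 11.4% and 5.88% in NC, and was called (adjusted p = 0.0025, and 0.0817 without NC replicate 2). It was at 0%, 0% and 0.673% in Blank, and was called there against NC too (adjusted p = 3.6e-05), a call lost with limma (0.463) and in the fit of all 12 libraries (0.611). XM_030247019 passed the filter on low counts in SFD@M against Blank only through Blank. XM_006498636 passed only through NC, so these calls could only be downward. The remaining 7 of 11 named Ctnnd1 transcripts, which include 5 NM_ transcripts with group means of 6.52% to 17.8%, were not called in either comparison.

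Enah encodes an actin regulator of the Ena/VASP family at the leading edge of moving cells. It had 84.3, 58.5 and 45.6 CPM in OTUB1_KD, against 257, 253 and 255 CPM in NC, and 72.5, 76.3 and 83.9 CPM in SFD@M, against 212, 216 and 216 CPM in Blank. The groups lay far apart, and the total fell by 2.09 ± 0.24 on the log2 scale in OTUB1_KD (adjusted p = 0.00038) and by 1.50 ± 0.06 in SFD@M (adjusted p = 2.7e-07). Its changes in the 2 experiments differed by −0.62 ± 0.25, which did not pass (adjusted p = 0.10), and passed without OTUB1_KD replicate 1 (−0.90, adjusted p = 0.0012).

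Within Enah, XM_006496650 held 36.0%, 20.7% and 23.3% of counts in SFD@M, against 3.90%, 0.903% and 2.67% in Blank, and its usage rose (3.38 ± 0.77, adjusted p = 0.0035). In OTUB1_KD its shares of 8.43%, 23.8% and 2.78% spanned those of NC, at 4.20%, 5.61% and 3.96% (1.33 ± 1.09, adjusted p = 1.0). XM_006496652 held 20.5%, 25.4% and 24.4% in SFD@M, against 38.3%, 44.6% and 55.9% in Blank, which did not pass (adjusted p = 0.0697). Neither transcript had a matched structure, so whether they hold the epithelial exon of Enah is not given. The matched NM_001083121 held 18.8%, 19.8% and 12.8% in OTUB1_KD, against 17.3%, 21.1% and 21.8% in NC, with overlapping ranges. In SFD@M it held 25.9%, 18.1% and 16.6%, above 15.4%, 11.5% and 14.8% in Blank. This did not pass (0.50 ± 0.52, adjusted p = 0.938).

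**Figure D3:**
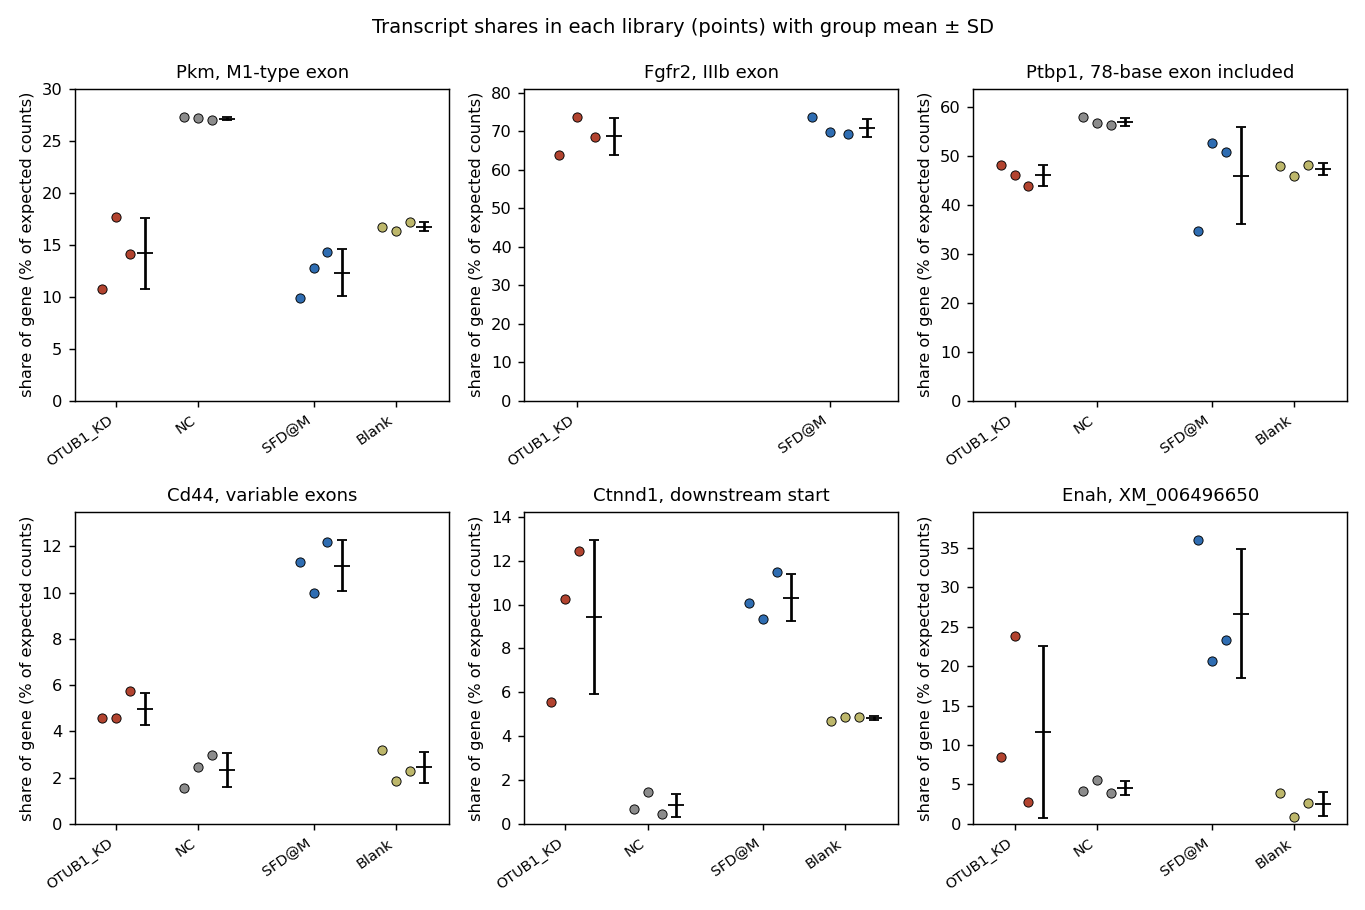
Share of each isoform in the expected counts of its gene, in percent, 1 point per library, with group mean and SD. The M1 share of Pkm lies lower, and the shares of Cd44 transcripts with variable exons and of the downstream start of Ctnnd1 lie higher, in OTUB1_KD than in NC and in SFD@M than in Blank. In both comparisons edgeR's usage test called neither the M1 nor the downstream-start transcript, and the Cd44 sum was not tested. Ctnnd1 transcripts without a matched structure, which held most of its counts, are not shown. Fgfr2 is shown only where it had more than 100 counts per library.

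Read against all genes tested, the calls of gene totals were common. Of the 9 genes, 5 were called in OTUB1_KD against NC (3 higher, 2 lower), where 65.7% of 14785 genes were called (39.9% higher, 25.8% lower). In SFD@M against Blank all 9 were called (4 higher, 5 lower), where 88.1% of 14824 genes were (49.5% higher, 38.7% lower). The difference between the 2 changes was called for 2 of 9, Ptbp1 and Ctnnd1, where 23.1% of genes were (10.8% higher, 12.4% lower). Esrp1, Esrp2 and Fgfr2 passed the filter on low counts there only through the OTUB1_KD and SFD@M libraries. On log2(TPM + 1), the median change over all genes was −0.02 in place of 0.16 in OTUB1_KD and −0.03 in place of 0.23 in SFD@M. The direction of all called members was the same on that scale, and Ctnnd1 in OTUB1_KD, which was not called, turned to 0.04.

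Usage changes in the targets were fewer. In OTUB1_KD against NC 1 of 37 tested target transcripts was called, a lower one, beside 2.96% of all transcripts (1.99% higher, 0.963% lower). That transcript had 0 counts in OTUB1_KD and could only be called lower. In SFD@M against Blank 7 of 36 were called, 4 higher and 3 lower, beside 6.92% (3.95% higher, 2.97% lower). Among them NM_001039150 of Cd44 could only be called higher, and NM_001085448 and XM_030247019 of Ctnnd1 only lower, so the counts carry that limit. By gene, which asks whether any transcript changed its share, 1 of 5 targets was called in OTUB1_KD (Ctnnd1, adjusted p = 0.0089), where 7.69% of genes were. In SFD@M 4 of 5 were called (Ctnnd1, adjusted p = 0.00013; Cd44, 0.0070; Enah, 0.0092; Pkm, 0.0219), where 15.5% were. For Pkm the called transcript, XM_006510855, had no matched structure, so its exon of the pair is not given. It averaged 0% of Pkm counts in SFD@M, against 0.157% in Blank, so this gene call rests on a transcript near 0. Leaving out NC replicate 1 or 2 left 0 targets in OTUB1_KD, leaving out OTUB1_KD replicate 1 gave 2, and leaving out Blank replicate 1 left 2 in SFD@M. The difference between the 2 experiments was called for 0 of 5 targets by edgeR, with 0.983% of genes called, and for 0 of 42 target transcripts, with 0.264% of transcripts called (0.182% higher, 0.0821% lower).

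Of 18 other genes reported to depend on ESRP proteins, 17 had enough transcripts to be tested for usage, and 8 were called in OTUB1_KD against NC, beside 7.69% of all genes, and 8 in SFD@M against Blank, beside 15.5%. The smallest p in OTUB1_KD belonged to Numb, an inhibitor of Notch signalling (adjusted p = 1.9e-05), Mprip, a myosin phosphatase partner (0.00053), and Scrib, a cell polarity protein (0.0012). In SFD@M the smallest belonged to Mprip (1.4e-12) and the ribosomal protein gene Rps24 (1.8e-11). Between the control groups, Blank against NC, 0 of 17 were called with edgeR, beside 2.28% of all genes, and 2 with limma, beside 13.2%. Tcf7l2, 1 of the 17, had an unadjusted p under 0.05 with edgeR (0.0139). In OTUB1_KD the count was 4 without replicate 2, 4 without NC replicate 1, 4 without NC replicate 2 and 5 without NC replicate 3. In their gene totals, 2 of the 18 rose and 5 fell in OTUB1_KD, beside 39.9% higher and 25.8% lower over all genes. In SFD@M 9 rose and 5 fell, beside 49.5% higher and 38.7% lower, so the shares of this list were near or below those of all genes. By usage, the other splicing regulators listed below had 3 of 30 called in OTUB1_KD against NC, beside 7.69% of all genes. They had 12 of 31 called in SFD@M against Blank, beside 15.5%, and 3 of 29 in Blank against NC, beside 2.28%. Usage calls above the share of all genes in SFD@M were thus not particular to the ESRP-dependent list. For OTUB1_KD the counts were 8 of 17 in that list and 3 of 30 in the other. The lists share Mbnl1, which was called in OTUB1_KD and in SFD@M.

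**Figure D4:**
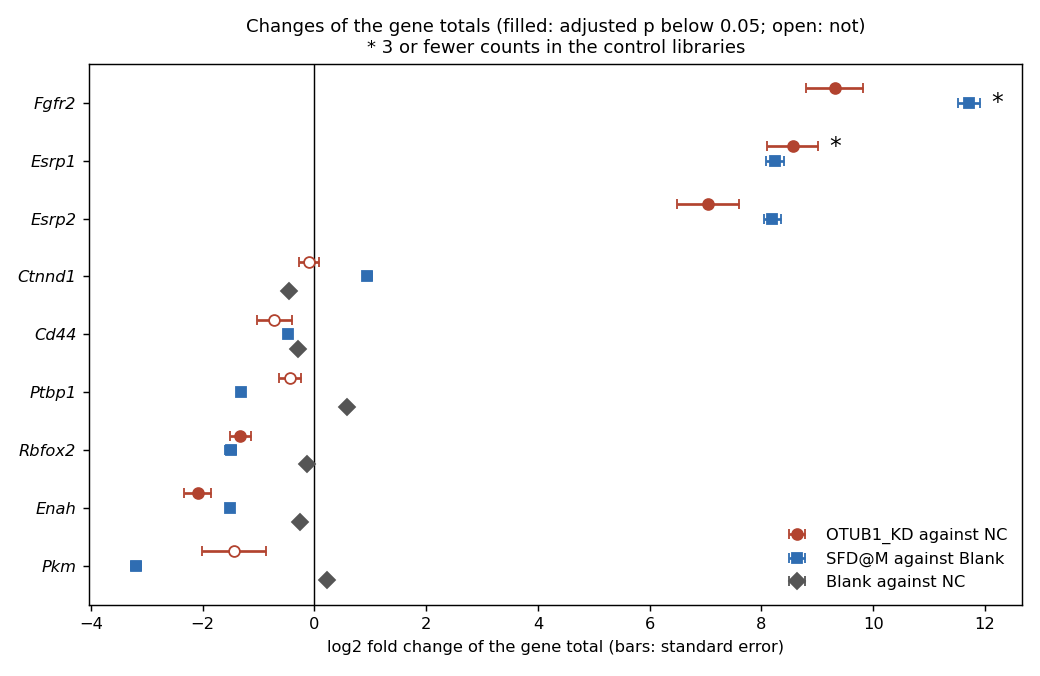
Log2 fold changes of the gene totals with approximate standard errors in OTUB1_KD against NC (circles), SFD@M against Blank (squares) and Blank against NC (diamonds). Filled symbols passed the test. Esrp1, Esrp2 and Fgfr2 lie far to the right in the first 2 comparisons, and were not tested between the control groups.

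The control groups were also set against each other, a comparison added after the data had been seen and one that crosses the experiments. Esrp1 totalled 6 counts in Blank and 3 in NC, Esrp2 8 in Blank and 11 in NC, and Fgfr2 2 in Blank and 9 in NC, and the filter left all of these out. The other 6 genes were all called, where 74.3% of 12087 genes were (37.0% higher, 37.2% lower). Ptbp1 was higher in Blank by 0.58 ± 0.02 and Pkm by 0.22 ± 0.02 on the log2 scale, while Ctnnd1 was lower by −0.46 ± 0.02, Cd44 by −0.29 ± 0.02, Enah by −0.25 ± 0.03 and Rbfox2 by −0.14 ± 0.03. In a fit of all 12 libraries, which takes its spread from all groups, Cd44, Enah, Pkm and Rbfox2 did not pass (adjusted p 0.283 to 0.872). The M1 transcript of Pkm had a lower share in Blank, at 16.4% to 17.2%, against 27.0% to 27.3% in NC (−0.70 ± 0.04, adjusted p = 1.3e-08), where 0.908% of transcripts were called (0.424% higher, 0.484% lower); in the fit of all libraries it did not pass (adjusted p = 1.0). The Blank shares lay inside the range of OTUB1_KD, at 10.8% to 17.7%. By gene, 2 of 4 tested targets changed usage (Pkm, adjusted p = 2.2e-08; Ctnnd1, 0.00013), where 2.28% of genes did; without NC replicate 2 it was 1.

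The other splicing regulators that were called in SFD@M mostly fell. Of 39 listed genes 38 were in the table. Of these 33 reached 1 CPM in NC and 33 in Blank, and genes at or near 0 counts there could only be called higher. In OTUB1_KD against NC 36 were tested, of which 5 rose, 12 fell and 19 did not pass, beside 39.9% higher and 25.8% lower over all genes, with a median log2 fold change of −0.44, beside 0.16 over all genes. Celf2, a regulator found in blood and nerve cells, rose by 6.42 ± 0.37, Nova1 by 2.99 ± 0.37 and Khdrbs3 by 4.25 ± 0.58. Mbnl3 fell by 2.07 ± 0.35, Srsf10 by 1.34 ± 0.31 and Khdrbs1 by 1.13 ± 0.27. Without OTUB1_KD replicate 1 the number that fell was 22, and without each NC library in turn it was 5.

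In SFD@M against Blank 38 were tested, of which 10 rose and 26 fell, beside 49.5% higher and 38.7% lower over all genes, with a median of −0.83, beside 0.23 over all genes. The limit on higher calls of genes near 0 counts in the controls holds here too. Celf2 rose by 9.51 ± 0.24, Khdrbs3 by 7.36 ± 0.33 and Mbnl2, a relative of muscleblind, by 1.31 ± 0.06. Mbnl3 fell by 2.80 ± 0.05, Hnrnpa1 by 2.42 ± 0.06 and Khdrbs1 by 1.46 ± 0.06. Hnrnpa1, known like Ptbp1 to act on the Pkm exon pair, averaged 235 ± 2.19 CPM in SFD@M, against 1230 ± 13.9 CPM in Blank, and 476 ± 253 CPM in OTUB1_KD, against 1208 ± 9.67 CPM in NC. In Blank against NC 27 of 33 tested regulators rose and 2 fell, beside 37.0% higher and 37.2% lower over all genes, led by Hnrnpa2b1 (0.82 ± 0.02), Hnrnpm (0.77 ± 0.02) and Srsf2 (0.70 ± 0.03); Nova2 (−0.99 ± 0.13) and Srsf11 (−0.09 ± 0.02) fell. In the fit of all 12 libraries 8 rose, and without NC replicate 3 or any 1 Blank library 4 to 6 fell.

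Transcription factors of the epithelial-mesenchymal transition did not all move one way. Grhl2, which sustains epithelial genes, averaged 20.1 ± 8.57 CPM in OTUB1_KD, against 3.06 ± 0.77 CPM in NC, and 29.0 ± 2.61 CPM in SFD@M, against 0.833 ± 0.202 CPM in Blank, and rose in both (2.64 ± 0.36 and 5.07 ± 0.17 on the log2 scale). Grhl1 rose by 3.52 ± 0.39 and Ovol1 by 3.20 ± 0.42 in OTUB1_KD, and Grhl1 by 5.53 ± 0.24 in SFD@M. Snai2, a repressor of epithelial genes, fell by 2.72 ± 0.14 in OTUB1_KD and by 2.96 ± 0.16 in SFD@M, Twist2 by 2.04 ± 0.56 and 4.29 ± 0.17, and Twist1 by 6.40 ± 0.32 in SFD@M. Zeb2, another repressor of epithelial genes, went the other way and rose in SFD@M by 1.51 ± 0.10. Of 10 tested genes of this list 4 rose and 2 fell in OTUB1_KD, beside 39.9% and 25.8% over all genes, and 6 rose and 3 fell in SFD@M, beside 49.5% and 38.7%. Without OTUB1_KD replicate 3, 1 fell in OTUB1_KD. Of the 11 listed genes 7 reached 1 CPM in NC and 6 in Blank, and Grhl3 and Ovol2 had 0 counts in both. Genes at or near 0 counts there could only be called higher, so nothing is read from these counts. In Blank against NC 0 of 7 rose with edgeR (1 on log2(TPM + 1), and 1 without NC replicate 1 or Blank replicate 2) and 3 fell, beside 37.0% higher and 37.2% lower over all genes. Those that fell were Zeb2 (−0.47 ± 0.04), Grhl2 (−1.88 ± 0.23) and Snai2 (−0.13 ± 0.04).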

How the data were processed

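RNA was measured in 12 mouse libraries, 3 in each of 4 groups, with 16062806 to 18028828 counts per library. The authors deposited expected counts and TPM per transcript. Per the submitters' processing notes, Bowtie2, RSEM 1.3.1, DESeq2 1.4.5 and GRCm39 were named, without their roles. RSEM splits reads shared by transcripts by estimation, so shares of similar transcripts, and genes with near-identical copies, are uncertain. The strand setting is not given in the sources used here. Another 40 value columns were not used.

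Expected counts were summed per gene and rounded (19155 of 19212 identifiers had a symbol; 0.342% of counts or less had none). Gene totals were tested with edgeR 4.0.16 (quasi-likelihood, robust, TMM, filterByExpr) in R 4.3.3. Transcript usage was tested with edgeR's diffSpliceDGE, by gene with Simes p-values. Calls had a Benjamini-Hochberg adjusted p below 0.05 over all features. Each ± on a log2 change is an approximate standard error, the change divided by the square root of the test's F statistic. Where a control group is near 0 counts, it can be smaller than counting error alone. The difference between experiments was an interaction contrast over 12 libraries. Scripts were tested on simulated data with the same spread in all libraries. The real groups differed in spread, so no error rate is taken from that test. Alternatives used DESeq2 1.42.0, limma 3.58.1 on log2(TPM + 1) and log2(TPM + 0.1), other filters, 1 fit of all libraries, a replicate block and leaving out each library.

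The 9 genes and all lists were chosen with earlier results of these data known. All 9 genes are named, with target transcripts at a mean share of 5% or more in a group, and from the other lists the 3 smallest p per direction (usage: the 3 smallest) per comparison. Hnrnpa1 in OTUB1_KD, Cdh1 and Krt8 levels, and the transcripts under 5%, were added after their values were seen. Some items that these rules cover are not reported here.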

Additional observations from a re-analysis of the deposited data

Results flagged for a closer look

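The change of 2 gene totals differed between the experiments by edgeR's interaction contrast. For Ptbp1, the change in OTUB1_KD against NC (−0.43) minus that in SFD@M against Blank (−1.31) was 0.85 ± 0.20 on the log2 scale (adjusted p = 0.0145). All 3 OTUB1_KD libraries were below NC, and all 3 SFD@M libraries below Blank. For Ctnnd1, the change in OTUB1_KD against NC (−0.10) minus that in SFD@M against Blank (0.95) was −1.08 ± 0.18 (adjusted p = 0.0037). All 3 SFD@M libraries were above Blank, while the OTUB1_KD libraries lay on both sides of NC. The Blank and NC groups themselves differed in both genes, by 0.58 for Ptbp1 and −0.46 for Ctnnd1 (Blank minus NC).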

How the results depend on the processing

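Of the alternative values for single gene totals, 417 kept direction and side of the threshold, 21 gained a call, 5 lost one and 4 reversed; for transcript usage these numbers were 217, 5, 11 and 2. The reversals were all of changes that did not pass: Ctnnd1 in OTUB1_KD against NC was 0.042 on both log2(TPM + 1) and log2(TPM + 0.1); leaving out a library gave a difference between experiments of −0.016 to 0.45 for Esrp1 and −0.042 to 0.25 for Rbfox2, and in SFD@M against Blank a usage change of −0.14 to 0.13 for NM_001077363 and −2.09 to 0.19 for NM_010207. The cause was not tested.

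Leaving out 1 library gave 7991 to 11141 called gene totals in OTUB1_KD against NC (9721 with all), 12776 to 13324 in SFD@M against Blank (13062), 8697 to 8818 in Blank against NC (8977) and 2090 to 5523 for the difference between experiments (3537). Called transcripts numbered 471 to 1380 (909 with all), 1478 to 1916 (2147), 139 to 166 (244) and 67 to 154 (103) in the same order. In 1 fit of all libraries, Blank against NC gave 2699 gene totals (28.2% higher, against 49.9% in its own fit) and 64 transcripts, and SFD@M against Blank gave 1304 transcripts. With limma, transcripts numbered 3631 in OTUB1_KD against NC, 8254 in SFD@M against Blank and 1696 in Blank against NC, and without a filter 120 in Blank against NC. The cause was not tested. Low counts of Esrp1, Esrp2 and Fgfr2 in the controls limit their folds and usage tests.

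Replicate numbers showed no pairing of the samples: correlations of same-numbered deviations were −0.048 to 0.079, and those of unlike numbers −0.098 to 0.102. The control libraries varied little beyond counting noise, so a pairing could have gone unseen. With the replicate block, called gene totals numbered 9362, 13010, 8947 and 3016 in the order above, and transcripts 363, 1344, 91 and 55.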
